A study of Mus musculus with 6 samples.

Results

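Solute carriers are the membrane proteins that move amino acids, sugars, metals, nucleotides, ions and vitamins into and out of cells and organelles. Their mouse genes are named Slc, then a family number, then a member. The members described here are the probe sets whose gene name in the authors' comparison table starts with Slc and a number and whose flag pass value is at least 4, leaving out Slc22a18 and Slc38a4. A probe set is a group of short array probes for 1 transcript. The flag pass value runs up to 6 and was taken here to count the arrays that detected it. The rule gave 186 probe sets of 125 genes in 34 families, out of 22526 tested probe sets of 12976 named genes and of 225 Slc probe sets before the flag rule. Of the 125 genes, 3 encode proteins that are not carriers in spite of the name (Slc4a1ap, Slc9a3r1 and Slc9a3r2), with 5 probe sets among them.

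The cells were CGR8 mouse embryonic stem cells grown as embryoid bodies, aggregates in which the early germ layers form, and sorted on day 5 by 2 surface proteins. Double-positive cells carried both CXCR4 and FLK-1, and double-negative cells carried neither. Each fraction was profiled on 3 Affymetrix mouse expression arrays from independently collected sorts, described in the labels as biological replicates and in the series text as RNA pools, without saying what was pooled. Both fractions came from the same line with no added treatment named, and cells carrying only 1 of the proteins were not analysed here.

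Carriers work in 2 main ways. Facilitative carriers let a solute run down its gradient, and coupled carriers use the sodium, proton or exchange gradient of another solute to concentrate it. Embryonic stem cells take up much glucose and many amino acids. Zinc carriers come in opposing families, since Slc39 proteins bring zinc into the cytosol and Slc30 proteins take it out.

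Each value is a ratio. The authors divided every probe set by its median over the 3 double-negative arrays, so 1 is that median, and the ratios keep no brightness. Levels can be compared between arrays for 1 probe set and not between genes. In a bulk sorted sample, fewer cells that use a gene and less RNA of it per cell cannot be told apart.

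The sort was visible in the transcripts. Cxcr4 stood at 5.405, 8.044 and 6.006 in double-positive arrays, against 0.783, 1.954 and 1 in double-negative arrays, and Kdr, the gene of FLK-1, did not overlap either. Markers of some other cell types moved with the groups as well, and 0 markers passed the adjusted threshold. All 8 pluripotency genes measured were lower in double-positive arrays without overlap, with summed ratios of 2.191 to 3.341 in double-positive arrays, against 6.983 to 9.827 in double-negative arrays. The 3 erythroid genes had summed ratios of 0.484 to 3.07 in double-positive arrays, against 1.297 to 48.59 in double-negative arrays, and none was listed at 0. Of 4 endothelial genes 3 were higher without overlap, with sums of 9.521 to 14.677 in double-positive arrays, against 3.146 to 6.095 in double-negative arrays. Of 6 cardiac progenitor genes 5 had a higher double-positive mean, 3 of them with an unadjusted p under 0.05 in limma, and the sums were 10.542 to 22.673 in double-positive arrays, against 4.341 to 12.126 in double-negative arrays. Extraembryonic endoderm genes were higher without overlap in 2 of 4, and the other 2 had a lower double-positive mean. Of 4 trophoblast genes, 2 had a higher and 2 a lower double-positive mean, and only 1, a lower one, did not overlap. Of 2 neural genes, 0 differed without overlap. The part of these cell types in the carrier values was not tested. Both replicate 1 arrays stood apart: the share of members with a ratio under 0.5 was 26.9%, 5.38% and 5.38% in double-positive replicates 1, 2 and 3, against 25.3%, 0.538% and 1.61% in double-negative replicates 1, 2 and 3. Over all probe sets with a flag of at least 4, the replicate 1 shares were 22.4% in the double-positive and 22.98% in the double-negative array.

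**Figure D1:**
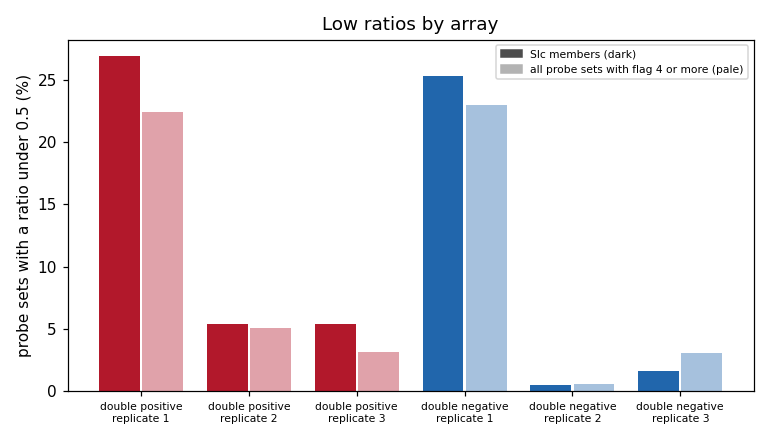
Share of probe sets with a ratio under 0.5 (%, vertical axis) on each array, for the 186 Slc members (dark) and all 18820 probe sets with a flag of at least 4 (pale). Replicate 1 of both groups is near 25%, and the other arrays are below 6%.

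No carrier passed the test between the 2 fractions. Among the 186 members, limma's test on the log2 ratios with Benjamini-Hochberg adjustment over all 22526 probe sets called 0 higher and 0 lower. It also called 0% of all tested probe sets in each direction, and the smallest adjusted p was 0.524 among members and 0.271 over all. Without adjustment, the limma p was under 0.05 for 1 member higher in double-positive cells and for 7 lower. These were 0.538% and 3.76% of members, against 1.37% and 2.58% of all probe sets with a flag of at least 4. With the replicate number as a block in limma, the unadjusted counts were 12 higher (6.45%, background 5.24%) and 17 lower (9.14%, background 6.29%). The count past the adjusted threshold was again 0, with a smallest adjusted p of 0.19. The differences below are therefore measured differences that did not pass the test, and none is written as a change. Of 47 probe sets followed across the alternatives, leaving out 1 array moved the log2 difference by over 1.5 times or turned its sign for 34, and leaving out double-negative replicate 1 did so for 31. Both replicate 1 arrays stood apart in the same direction, with member medians of -0.536 and -0.464 on the log2 scale. Leaving out only 1 of them therefore unbalances the groups, and such moves also hold that shift.

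The members together were near the background in their counts without overlap. Counted over probe sets, but not clearly over genes, a larger share than the background was at least 2-fold lower. Whether the shares differ was not tested. The groups did not overlap for 8 members that were higher in double-positive cells, 4.30% of members against 4.76% of all probe sets, and for 9 that were lower, 4.84% against 4.72%. At least 2-fold differences were seen for 3 members higher (1.61%, background 1.83%) and 10 lower (5.38%, background 3.28%). By gene means, 4 of the 125 genes were at least 2-fold lower, where the background share was 2.905% of genes. For 2 genes the mean was at least 2-fold higher, where the background share was 1.813%. The member means were higher in double-positive cells for 93 probe sets and lower for 93. The median log2 difference was -0.025 over the 125 genes and 0.039 over the 11255 genes with a flag of at least 4. Since the smallest p an exact two-sided permutation test of 3 against 3 arrays can give is 0.1, such a test on any 1 carrier could not pass 0.05.

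**Figure D2:**
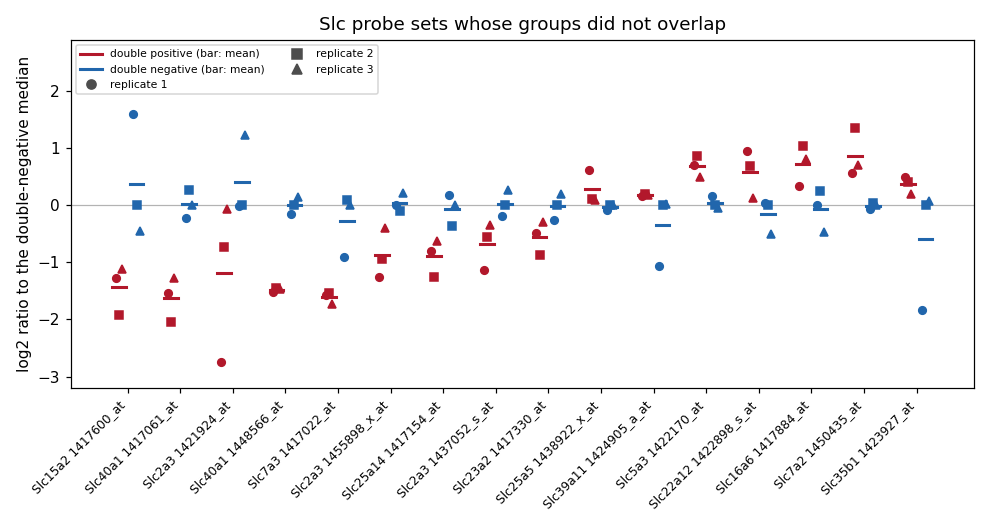
Log2 ratios to the double-negative median (vertical axis) of 16 Slc probe sets whose 3 double-positive values (left of each pair, red) all lie on one side of the 3 double-negative values (right, blue). Symbols are replicates and bars are means; the 2 Slc40a1 probe sets stand lower by 1.63 and 1.48 on the log2 scale.

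Iron and zinc carriers made up most of the 19 metal carrier genes. Slc40a1 encodes ferroportin, the exporter of iron from cells, and it had the lowest double-positive mean of that class. Its probe set 1417061_at read 0.344, 0.243 and 0.413 in double-positive arrays, against 0.861, 1.201 and 1 in double-negative arrays. Its second probe set, 1448566_at, read 0.349, 0.366 and 0.363 in double-positive arrays, against 0.899, 1 and 1.108 in double-negative arrays. In each probe set the 3 double-positive values lay below the 3 double-negative ones, and both probe sets were read on the same arrays. The double-positive to double-negative ratio was 0.322 (95% confidence interval 0.186 to 0.558) and 0.360 (0.223 to 0.579), with log2 differences of -1.63 (SE 0.346, limma adjusted p = 0.563) and -1.48 (SE 0.2998, limma adjusted p = 0.524). Over the alternatives tried, the limma adjusted p of 1417061_at ran from 0.0478 to 1.0 and that of 1448566_at from 0.0216 to 1.0. Both low ends came from array weights. These weights give both replicate 1 arrays little say and double-positive replicate 3 the largest weight, 6.655. Erythroid cells also export iron through ferroportin, and 3 of their globin genes were measured, all with a lower double-positive mean. Hba-a1 read 0.178, 0.202 and 0.284 in double-positive arrays, against 1, 1.018 and 0.472 in double-negative arrays, without overlap. Hbb-bh1 read 2.061, 0.324 and 0.108 in double-positive arrays, against 37.35, 1 and 0.341 in double-negative arrays. Hbb-y read 0.831, 0.26 and 0.0916 in double-positive arrays, against 10.24, 1 and 0.484 in double-negative arrays. Hbb-bh1 and Hbb-y overlapped between groups. The part of erythroid cells was not tested.

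The other metal carriers lay on both sides. Of the 19 genes, 11 had a higher double-positive mean and 8 a lower one, with a class median of 0.106. Slc39a4, a zinc importer, read 1.246, 1.698 and 1.914 in double-positive arrays, against 0.672, 1.437 and 1 in double-negative arrays, a log2 difference of 0.69 (SE 0.389). Slc39a11, another member of the zinc importer family, read 1.118, 1.153 and 1.135 in double-positive arrays, against 0.478, 1 and 1.017 in double-negative arrays. Its groups did not overlap, but its log2 difference of 0.53 became 0.171 without double-negative replicate 1. Slc39a14, an importer of zinc and of iron not bound to transferrin, had a log2 difference of -0.67 (SE 0.460) with overlapping groups. The probe sets of Slc39a9 differed from each other, at -0.74 for 1443325_at and -0.05 for 1452765_at. Slc11a2, an iron importer, had log2 differences of 0.18 and 0.63, and Slc31a1, the copper importer, 0.09 and 0.54. The genes of the 5 Slc30 zinc exporters ran from -0.17 (Slc30a6) to 0.52 (Slc30a4). Tfrc, the transferrin receptor that brings iron in, was a regulator list gene and had a log2 difference of 0.08 (unadjusted p = 0.823 in limma).

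Cationic amino acid carriers had unlike values within 1 family. Slc7a1, Slc7a2 and Slc7a3 all bring arginine and lysine into cells. Slc7a3 read 0.336, 0.346 and 0.303 in double-positive arrays, against 0.536, 1.06 and 1 in double-negative arrays. The groups did not overlap, and the 3 double-positive values lay close together. The ratio was 0.396 (95% confidence interval 0.220 to 0.711) and the log2 difference -1.34 (SE 0.368, limma adjusted p = 0.69). Slc7a2 had higher double-positive values in its probe set 1450435_at, with 1.473, 2.55 and 1.625 in double-positive arrays, against 0.952, 1.031 and 1 in double-negative arrays. That is a ratio of 1.84 (1.07 to 3.15) and a log2 difference of 0.88 (SE 0.340, limma adjusted p = 0.947). Its other probe set, 1426008_a_at, overlapped between groups. Slc7a1 had log2 differences of -0.04 and 0.11. Whether the 3 paralogs differ from each other was not tested.

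Slc3a2, the heavy chain that carries Slc7a5 and Slc7a7 to the cell surface, had a log2 difference of 0.48 (SE 0.459), which was 0.038 without double-negative replicate 1. Slc7a5 had one of 0.28 (SE 0.418), which ran from 0.05 to 0.623 when 1 array was left out. Slc7a7, the light chain that releases cationic amino acids, read 0.218, 0.272 and 0.518 in double-positive arrays, against 0.379, 1 and 1.114 in double-negative arrays in probe set 1417392_a_at. Its groups overlapped through the low double-negative replicate 1, and replicate 1 was also the lowest double-positive value. The log2 difference of that probe set was -1.26 (SE 0.522, limma adjusted p = 0.986), and the second probe set of Slc7a7 gave -0.59. Slc38a2, a sodium-coupled carrier of small neutral amino acids, had log2 differences of -0.17 and -0.66, and its first value became 0.386 without double-positive replicate 1. Slc1a3, a glutamate carrier, had a log2 difference of -1.02 (SE 0.480) with a first double-positive value, 0.977, inside the double-negative range of 0.932 to 1.063. Slc7a1, Slc7a7, Slc1a3, the metal carriers Slc39a4, Slc39a14, Slc11a2, Slc31a1, Slc30a4 and Slc30a6, and the single partners, regulators and markers given with values fall outside the naming rule and were chosen after their values were seen.

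Slc15a2, the high-affinity carrier of short peptides, showed the largest disagreement between probe sets of any carrier gene. Probe set 1417600_at, with a flag of 6, read 0.416, 0.264 and 0.46 in double-positive arrays, against 3.028, 1 and 0.728 in double-negative arrays. The groups did not overlap, with a ratio of 0.284 (95% confidence interval 0.118 to 0.682) and a log2 difference of -1.82 (SE 0.551, limma adjusted p = 0.776). Double-negative replicate 1 was the high array, and without it the log2 difference was -1.21. The 2 probe sets with a flag of 4 gave log2 differences of 0.11 and 0.40, so the gene's mean was -0.44. Over the 41 genes with several member probe sets, the differences had 1 sign in 29 and both signs in 12, and the median range within a gene was 0.428 against 2.22 for Slc15a2. The amino acid and peptide class had a median of 0.036 over 19 genes, 10 higher and 9 lower.

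The windows around the start sites of 2 carriers with non-overlapping groups are shown, and they differ in composition. Slc15a2 was lower and Slc5a3, the sodium-coupled carrier of the osmolyte myo-inositol, was higher in double-positive cells. They were picked after their values were seen, as the largest difference each way among non-overlapping members with a flag of 6 and 1 listed window. The sequences are from RefSeq (GRCm38.p6), read along the gene from 250 bases before to 50 after its start. Slc15a2 lies on the minus strand at chr16:36784913-36785212 and Slc5a3 on the plus strand at chr16:92058072-92058371. Capitals mark matches on either strand to the GC box GGGCGG, the hypoxia core ACGTG and the metal response core TGCNCNC, where N is any base.
Slc15a2: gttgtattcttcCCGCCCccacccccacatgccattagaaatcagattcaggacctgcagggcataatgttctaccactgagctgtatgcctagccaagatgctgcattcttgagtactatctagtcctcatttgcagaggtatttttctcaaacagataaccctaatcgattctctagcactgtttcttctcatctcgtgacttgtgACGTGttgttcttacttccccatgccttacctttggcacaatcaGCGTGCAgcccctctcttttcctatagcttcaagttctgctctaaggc
Slc5a3: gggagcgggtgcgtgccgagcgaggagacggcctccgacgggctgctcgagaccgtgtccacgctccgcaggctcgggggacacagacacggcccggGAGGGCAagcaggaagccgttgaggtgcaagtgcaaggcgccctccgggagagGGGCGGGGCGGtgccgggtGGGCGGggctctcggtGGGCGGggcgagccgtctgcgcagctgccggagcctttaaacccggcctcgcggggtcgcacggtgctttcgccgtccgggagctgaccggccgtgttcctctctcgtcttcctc
The Slc5a3 window is 73.3% G and C and holds the GC box 4 times, and the Slc15a2 window is 46.3% G and C and holds it once. Windows were listed for 94 of the 125 member genes, 133 windows in all. Their median share of G and C was 61.7%, against 52.7% over all 32851 windows. The GC box was in 72.2% of member windows and 35.7% of all windows, the hypoxia core in 30.8% and 19.6%, the metal response core in 62.4% and 51%, and the octamer ATGCAAAT in 0.752% and 1.74%. The CCAAT box CCAAT was in 30.1% of member windows and 37.4% of all windows, and the amino acid response motif TGATGNAA in 2.26% and 3.97%. Matches are descriptions of these letters and show no binding.

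The sugar carriers with member probe sets were Slc2a1, Slc2a3 and Slc5a3. Slc2a3, a high-affinity facilitative glucose carrier, was lower in double-positive cells without overlap in all 3 of its probe sets. Probe set 1455898_x_at read 0.418, 0.519 and 0.755 in double-positive arrays, against 1, 0.934 and 1.165 in double-negative arrays. Its log2 difference was -0.91 (SE 0.347, limma adjusted p = 0.945), and 1437052_s_at gave -0.70. Endings _s_at and _x_at mark probes that can match related transcripts. The third probe set, 1421924_at, has no such ending and read 0.15, 0.6 and 0.96 in double-positive arrays, against 0.987, 1 and 2.341 in double-negative arrays. Its log2 difference of -1.58 became -0.80 without double-positive replicate 1, and the other probe sets kept their direction there. Slc2a1, the basal glucose carrier, had overlapping groups in all 3 probe sets, with log2 differences of 0.77, 0.44 and 0.08, and the first, of 1426600_at, was 0.152 without double-negative replicate 1. The difference between both genes was not tested. Txnip, which lowers glucose uptake, is in the regulator list and read 0.295, 0.255 and 0.47 in double-positive arrays, against 1.437, 0.435 and 1 in double-negative arrays. Its groups overlapped (limma adjusted p = 0.919).

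**Figure D3:**
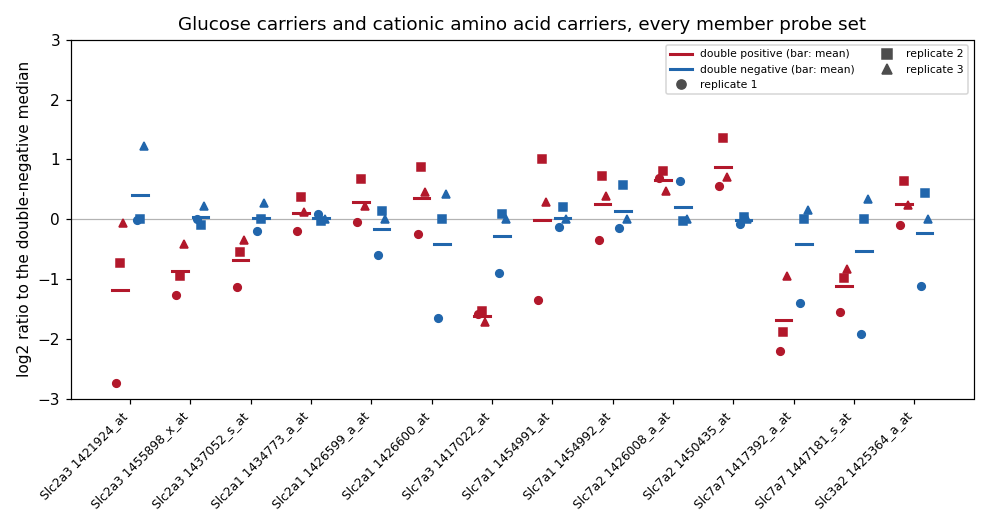
Log2 ratios to the double-negative median (vertical axis) of every member probe set of the glucose carriers Slc2a3 and Slc2a1, the cationic amino acid carriers Slc7a3, Slc7a1 and Slc7a2, and Slc7a7 with its heavy chain Slc3a2; red is double positive (left), blue double negative, symbols are replicates and bars are means. All Slc2a3 probe sets and Slc7a3 have every double-positive value below every double-negative one.

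Slc5a3 read 1.626, 1.813 and 1.402 in double-positive arrays, against 1.117, 1 and 0.968 in double-negative arrays. Its groups did not overlap and the log2 difference was 0.64 (SE 0.306, unadjusted p = 0.0669 in limma). It stayed between 0.464 and 0.747 over the alternatives.

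Carboxylic acid carriers move lactate, pyruvate and related acids. Slc16a6, a member of the monocarboxylate family, read 1.27, 2.041 and 1.763 in double-positive arrays, against 1, 1.189 and 0.727 in double-negative arrays, a log2 difference of 0.80 (SE 0.356) without overlap. The lactate carriers Slc16a1 and Slc16a3 overlapped between groups, at 0.51 and 0.09. Slc16a1 became -0.263 without double-negative replicate 1, where it read 0.222. Slc16a13 had a log2 difference of -0.65 (SE 0.499). The class median was 0.12 over 6 genes. Bsg, the chaperone that brings Slc16a1 to the surface, had a log2 difference of 0.51 (unadjusted p = 0.353 in limma) with overlapping groups. It read 0.903, 1.053 and 0.963 in double-positive arrays, against 0.295, 1.08 and 1 in double-negative arrays, so double-negative replicate 1 was the low array. Mpc2, a subunit of the mitochondrial pyruvate carrier, read 2.625, 2.608 and 1.647 in double-positive arrays, against 1, 1.356 and 0.73 in double-negative arrays.

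Nucleotide and nucleotide sugar carriers feed the Golgi and the endoplasmic reticulum. Slc35b1, a nucleotide carrier of the endoplasmic reticulum, read 1.418, 1.326 and 1.145 in double-positive arrays, against 0.281, 1 and 1.05 in double-negative arrays in probe set 1423927_at. The log2 difference was 0.96 (SE 0.527), and 0.334 without double-negative replicate 1. Probe set 1429007_at overlapped between groups, at 1.22. Slc35f2, placed here by its family number, read 0.28, 0.556 and 0.489 in double-positive arrays, against 0.445, 1 and 1.31 in double-negative arrays. Its log2 difference was -0.98 (SE 0.487). Slc35a3, a carrier of UDP-N-acetylglucosamine, had 4 probe sets from -1.10 to 0.72 and a gene mean of 0.001. The class, which was filled by family number and also holds sugar phosphate carriers, had a median of 0.001 over 15 genes.

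Of the 22 mitochondrial carriers of family 25, 9 had a higher and 13 a lower double-positive mean, with a median of -0.096. Slc25a14, of the uncoupling protein branch, read 0.571, 0.419 and 0.649 in double-positive arrays, against 1.129, 0.777 and 1 in double-negative arrays. The groups did not overlap and the log2 difference was -0.83 (SE 0.339, limma adjusted p = 0.972). Slc25a24, an exchanger of ATP-magnesium and phosphate, had a log2 difference of 0.70 (SE 0.615), which was 0.212 without double-negative replicate 1. Slc25a5, an ADP/ATP exchanger, had 8 probe sets between -0.13 and 0.30, and only 1438922_x_at did not overlap between groups.

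Ion and acid-base carriers had no passing member. Of the 7 carriers of sodium, potassium, calcium and chloride, 5 had a lower double-positive mean, and their median was -0.331. That median became -0.016 without double-positive replicate 1. Slc12a2, which brings sodium, potassium and chloride in, had log2 differences of -0.34, -0.50 and -0.38, and Slc12a7, which lets potassium and chloride out, had -0.56. In Slc12a2 both replicate 1 arrays were low, at 0.301 in the double-positive and 0.461 in the double-negative array for 1417622_at. Slc4a4, a sodium bicarbonate carrier, had log2 differences of 1.05, 0.58 and 0.31, with overlapping groups in all 3 probe sets. The first, of 1434096_at, was 0.356 without double-negative replicate 1 alone. This probe set read 0.592, 1.787 and 2.004 in double-positive arrays, against 0.237, 1 and 1.008 in double-negative arrays. With the replicate block its limma adjusted p was 0.234. Slc4a2, a chloride bicarbonate exchanger, had a log2 difference of -0.03. The 2 probe sets of Slc9a8, a sodium-proton exchanger of the Golgi, gave -1.31 and 0.42. The 7 sodium pump genes measured, which keep the gradient that coupled carriers use, had 0 with an unadjusted p under 0.05.

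**Figure D4:**
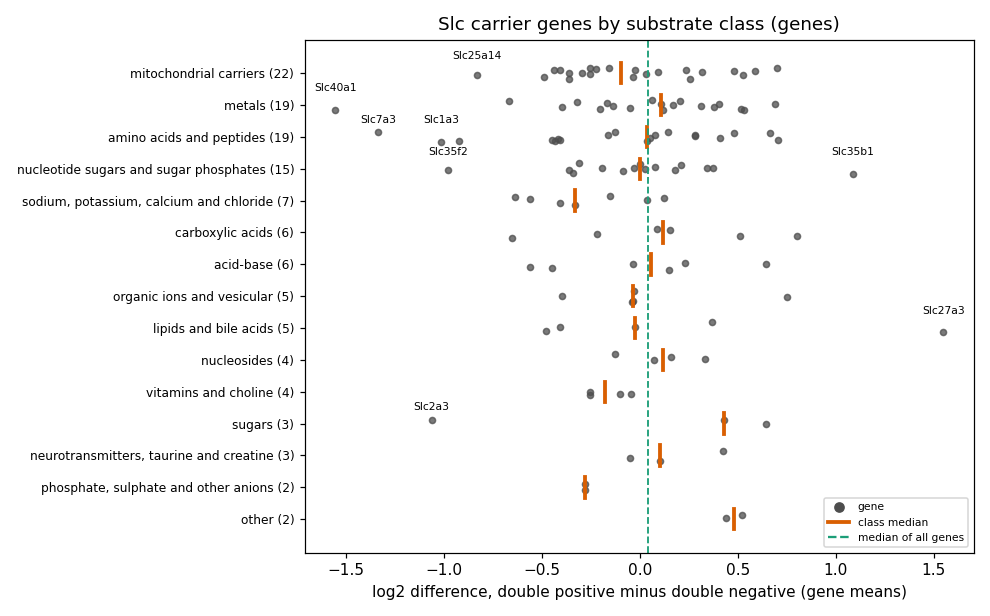
Log2 difference, double positive minus double negative, of each carrier gene (points, mean of its probe sets), by substrate class with the number of genes in brackets; orange bars are class medians and the dashed line is the median of all 11255 genes, 0.039. Slc27a3 lies at 1.55 and Slc40a1 at -1.56 at the ends of the plot.

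Carriers of vitamins, anions, nucleosides and organic ions gave small classes. Slc23a2, which takes up vitamin C, had 1 of 3 probe sets without overlap, 1417330_at at -0.53 (SE 0.329), with the others at -0.33 and 0.10. Slc19a3, a thiamine carrier, had a log2 difference of -0.26. Slc22a12, a urate carrier, read 1.94, 1.618 and 1.087 in double-positive arrays, against 1.024, 1 and 0.702 in double-negative arrays (log2 difference 0.75, SE 0.361, flag 4). Slc18a2, the vesicular monoamine carrier, had -0.40. The phosphate carriers Slc20a1 and Slc20a2 had gene means of -0.28 each, but the probe sets of Slc20a1 ran from -0.95 to 0.32. The nucleoside carriers Slc29a1, Slc29a2 and Slc29a4 had 0.07, 0.33 and 0.16. Slc6a6, a taurine carrier, had 0.37 and 0.48, and Slc6a8, the creatine carrier, 0.10. Slc33a1, which takes acetyl-CoA into the endoplasmic reticulum, had 0.52, which was 0.082 without double-negative replicate 1.

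Among fatty acid carriers, the value of Slc27a3 depended strongly on 1 array. Slc27a3 had the highest log2 difference of the 125 genes, with 0.504, 1.801 and 1.716 in double-positive arrays, against 0.0436, 1.428 and 1 in double-negative arrays. The groups overlapped. Its log2 difference of 1.55 (SE 1.22) became -0.044 without double-negative replicate 1. Slc27a1 had -0.48 (SE 0.420). The difference of Slc27a3 was among those of the 25 members at the flag limit, which ran from -1.58 (Slc2a3) to 1.55 with a median of 0.088. The 14 Slc probe sets with a flag of 3, just outside, ran from -2.26 (Slc27a2) to 1.72 (Slc35a5) with a median of 0.099.

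Slc7a11, Slc1a5, Slc39a1 and Slc30a1, from the fixed list of widely known carriers, had no member probe set. The list of chaperones and other partners, with 9 genes measured, also holds Slco genes, which encode carriers themselves, and subunits of the pyruvate carrier. In this mixed list, the limma p was under 0.05 without adjustment for 1 gene higher in double-positive cells, Mpc2. It was also under 0.05 for 3 lower, Ostm1 and the Slco carriers Slco4c1 and Slco5a1. Among 15 regulators it was so for Sgk3, a kinase that raises carrier activity, on the higher side and for Txnip on the lower side. Over all tested probe sets the shares were 1.38% higher and 3.49% lower, and 0 partners passed the adjusted threshold. Of the alternatives run, array weights alone let members pass it, both Slc40a1 probe sets and Slc7a3, all lower, where 0.178% of tested probe sets passed on the higher and 0.653% on the lower side.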

How the data were processed

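The authors deposited linear ratios for 45101 probe sets, each divided by the median of the 3 double-negative arrays, which is 1 for 100% of probe sets. How probes were summarised and arrays scaled is not stated in the labels or headers, and without brightness the number of arrays limits the precision. The deposited comparison table, per the file headers, holds a flag pass value (a score of 2 to 6), a fold change and a p-value. Its gene names were used; 124 of 125 matched RefSeq (GRCm38.p6) symbols and 1 a synonym.

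Log2 ratios, with no pseudocount, were fitted with limma 3.58.1 in R 4.3.3 (lmFit, eBayes, two-sided) over 22526 non-control probe sets, with Benjamini-Hochberg adjustment at 0.05; code was tested on simulated data. Differences are double positive minus double negative, n = 3 arrays per group. Gene values are means over member probe sets. Named were members past the threshold, up to 10 genes each way without overlap, 2 per substrate class, genes with opposite probe sets, and a list of known carriers; some of these are not reported here. Members, lists and promoter motifs were chosen with earlier results of these data known. The rule setting Slc4a1ap apart from carriers was added after the files were seen, from its name.

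Same-numbered arrays were checked for pairing: their deviations from group means correlated at 0.487, 0.34 and 0.206 for replicates 1, 2 and 3, so the block was fitted. Replicates 2 and 3 were barely told apart, since double-positive replicate 2 correlated at 0.215 with double-negative replicate 3. The labels do not say what the numbers share.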

Additional observations from a re-analysis of the deposited data

How the results depend on the processing

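Across 16 alternatives, array weights alone moved the count of members past the adjusted threshold, to 3 against 0, all lower. Those weights were 0.239, 1.343 and 6.655 for double-positive replicates 1, 2 and 3. The weights of double-negative replicates 1, 2 and 3 were 0.182, 1.245 and 2.066. They nearly drop both replicate 1 arrays and rest most on double-positive replicate 3. Leaving both replicate 1 arrays out without weights gave 0. The count of members with an unadjusted p under 0.05 on the higher side (1) was 12 with the replicate block, 9 without both replicate 1 arrays, 3 with quantile normalization, median centring or a pseudocount of 0.5, 12 with array weights, 2 with tests or members limited by flag, 0 over all probe sets and 0 to 4 leaving out 1 array. On the lower side (7) it was 17 with the replicate block, 15 without both replicate 1 arrays, 16 with array weights, 4 with gene means and 5 to 10 leaving out 1 array. The count without overlap was 43 higher and 41 lower without both replicate 1 arrays, 5 higher with quantile normalization, 13 higher and 16 lower with median centring, 5 higher with flag 6, and 5 higher and 4 lower with gene means; leaving out 1 array, which makes non-overlap easier, gave 9 to 38 higher and 14 to 36 lower. Partner genes with an unadjusted p under 0.05 (6) were 11 with the replicate block and 11 with array weights, and 1 to 7 leaving out 1 array. The median of organic ion carriers (-0.036) was 0.038 without both replicate 1 arrays, 0.12 with quantile normalization, 0.104 with array weights and -0.097 to 0.047 leaving out 1 array. That of sodium, potassium, calcium and chloride carriers (-0.331) was -0.207 with the pseudocount, -0.108 with array weights, -0.186 with flag 6 and -0.511 to -0.016 leaving out 1 array. That of carboxylic acid carriers (0.12) was -0.177 to 0.233 leaving out 1 array. The replicate block changed no call past the adjusted threshold. The cause of these shifts was not tested.

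Class medians with flag 6 were left out where fewer than 2 genes remained. Of 47 probe sets followed, the 16 without overlap kept their sign under the alternatives run, and 15 others turned it at least once. Leaving out 1 array at a time, the log2 difference ran from -0.731 to 0.188 for Slc12a2, -0.926 to 0.056 for Slc12a7, -0.263 to 1.101 for Slc16a1, -0.134 to 0.375 for Slc16a3, -0.672 to 0.121 for Slc18a2, -0.643 to 0.293 for Slc20a2, -0.87 to 0.089 for Slc23a2 (1417329_at), -0.044 to 2.473 for Slc27a3, -0.134 to 0.257 for Slc29a1, -0.082 to 0.765 for Slc29a2, -0.51 to 0.386 for Slc38a2, -0.654 to 0.416 for Slc4a2, -0.03 to 1.131 for Slc6a6 and -0.151 to 0.516 for Slc6a8. Without both replicate 1 arrays, Slc16a3 was -0.356, Slc18a2 0.038, Slc29a4 -0.038 and Slc38a2 0.139. With array weights, Slc16a3 was -0.513, Slc18a2 0.34, Slc29a1 -0.176 and Slc38a2 0.109, and with quantile normalization Slc16a3 was -0.073 and Slc29a1 -0.029.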
